A study of Mus musculus with 7 samples.

Results

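The respiratory chain genes described here are the 106 genes of the matrix whose symbols start with mt-, Nduf, Uqcr or Atp5, or with Cox followed by 4 to 8. They are 106 of 33696 genes, and they fall into 13 genes encoded in the mitochondrion (the mt- genes) and 93 genes encoded in the nucleus. They were measured by snRNA-seq in 1 library of cultured BB-p53n OPCs. These are primary mouse oligodendrocyte progenitors of either sex, isolated through CD140a from *Trp53* fl/fl C57BL/6 pups in their first postnatal week and transduced with a PDGFB-IRES-CRE retrovirus, a design meant to overexpress PDGFB and delete *Trp53*. The retrovirus was applied to the whole culture, its presence in each nucleus was not measured here, and the 3 early-tumor and 3 late-tumor brain samples of the study were not analysed here. The OPC nuclei were isolated without the debris removal and filtering steps that the tumor samples went through.

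Of 10047 deposited barcodes, 8917 had between 2000 and 8000 detected genes and were kept as nuclei. They held 141138093 UMIs, with a median of 13771 UMIs per nucleus. With 1 library there was no replicate, so no test between groups of nuclei was run, and the 95% intervals (exact Poisson for levels and exact conditional binomial for ratios) cover counting error only. All 8 OPC marker genes looked up were detected, with a summed level of 5732 CPM. The neuron list summed to 132 CPM, of which *Syt1* gave 116 CPM (15377 UMIs). The astrocyte list summed to 16.4 CPM, from 4 UMIs of *Aqp4* to 1939 UMIs of *Slc1a2*. The endothelial list summed to 8.18 CPM, from 0 UMIs of *Cldn5* to 770 UMIs of *Pecam1*, and the microglia list to 7.86 CPM, with 8 UMIs of *Tmem119* and 741 UMIs of *P2ry12*.

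Oxidative phosphorylation moves electrons through complexes I, III and IV of the inner mitochondrial membrane, and complex V makes ATP from the proton gradient that results. Each of these complexes is built from subunits of both genomes. The mitochondrial genome supplies hydrophobic core subunits that are made inside the organelle, and the nucleus supplies all other subunits and the assembly factors, whose proteins are imported. Transcripts of the mt- genes do not pass through the nucleus, so in a preparation of nuclei they come with material from outside it, and their share of UMIs is widely used to filter barcodes. The levels below compare the gene sets of both genomes, and then nuclei with at most 5% and with over 5% mt- UMIs.

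The mt- genes took 6.34% of the UMIs of the kept nuclei (95% interval 6.33 to 6.34). Per nucleus the share ran from 0% to 34.1% with a median of 6.16%, and 2 nuclei had no mt- UMI. To keep the nuclear-encoded genes free of the mt- share, all levels are given in CPM, with the UMIs of genes outside mt- as the total. On this scale the 13 mt- genes summed to 67635 CPM and the 93 nuclear-encoded genes to 17681 CPM (17658 to 17704), so that 3.83 mt- UMIs were counted for each UMI of a nuclear-encoded member. Per complex, the mt- genes of complex I summed to 19508 CPM, *mt-Cytb* of complex III stood at 8568 CPM, the complex IV genes summed to 20367 CPM and the complex V genes to 19191 CPM. The nuclear-encoded genes summed to 5806 CPM for complex I, 1545 CPM for complex III, 4873 CPM for complex IV and 5456 CPM for complex V.

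The mt- genes lie head to tail on 1 circular chromosome and are cut from long shared transcripts. Even so, their levels spread widely. *mt-Atp6*, the a subunit of the membrane part of ATP synthase (chrM:7927-8607 of GRCm39, plus strand), took 28.1% of all mt- UMIs and had the highest count of any gene in the library. *mt-Co3* (chrM:8607-9390) and *mt-Co2* (chrM:7013-7696), core subunits of cytochrome c oxidase, took 13.5% and 11.5%, and *mt-Cytb* (chrM:14145-15288) took 12.7%. At the other end, *mt-Atp8* took 0.268%, *mt-Nd4l* 0.416% and *mt-Nd6* 0.217%. Comparing genes per length, in CPM per kb of exon, *mt-Atp6* stood at 27915, *mt-Co3* at 11652, *mt-Co2* at 11399, *mt-Nd3* at 7702 and *mt-Cytb* at 7490. The complex I genes *mt-Nd1*, *mt-Nd2* and *mt-Nd4* followed at 6273, 5060 and 3234 CPM per kb, and *mt-Co1* at 2223. The lowest were *mt-Nd4l* at 948, *mt-Atp8* at 888, *mt-Nd5* at 377 and *mt-Nd6* at 283 CPM per kb. The assay counts tags near the 3′ end of polyadenylated RNA, so a level per length ranks tags and is not a number of transcripts.

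Neighbouring mt- genes that share an RNA show how far the tags of a pair can part. *mt-Atp8* and *mt-Atp6* overlap by 43 bases and *mt-Nd4l* and *mt-Nd4* by 7 bases. *mt-Nd6* is the only member gene of the minus strand and overlaps the 3′ end of *mt-Nd5* by 14 bases. The 3 overlaps are shown on the plus strand of GRCm39, with the shared bases in capitals. Tags inside the first and second overlaps fit both genes of the pair, while *mt-Nd5* and *mt-Nd6* lie on opposite strands. In the first pair the upstream gene had 888 CPM per kb against 27915 for the downstream gene.
mt-Atp8 and mt-Atp6, chrM:7906-7990: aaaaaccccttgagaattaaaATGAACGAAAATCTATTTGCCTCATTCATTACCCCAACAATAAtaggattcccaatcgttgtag
mt-Nd4l and mt-Nd4, chrM:10146-10194: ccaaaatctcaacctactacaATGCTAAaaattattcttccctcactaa
mt-Nd5 and mt-Nd6, chrM:13531-13586: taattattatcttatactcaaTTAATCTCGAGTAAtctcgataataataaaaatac
In both plus-strand pairs the gene at the 5′ end had the lower level. *mt-Nd4l* had 282 CPM (279 to 285) and *mt-Nd4* 4457 CPM (4446 to 4469).

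A search of the 13 mt- gene sequences against the nuclear chromosomes of GRCm39 found near-identical copies of some of them. Copies on chromosome 1 carried all bases of *mt-Co2*, *mt-Atp8*, *mt-Atp6*, *mt-Co3* and *mt-Nd4l* without a mismatch, 99.1% of *mt-Nd3* and 63.6% of *mt-Nd4*. No alignment of at least 90 bases and 98% identity was found for *mt-Nd1*, *mt-Nd2*, *mt-Nd5*, *mt-Nd6* or *mt-Cytb*, and for *mt-Co1* such alignments covered 31.3%. RNA from the chromosome 1 copies could not be told apart from mitochondrial RNA in these counts. The genes with and without such a copy both held high and low levels.

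**Figure D1:**
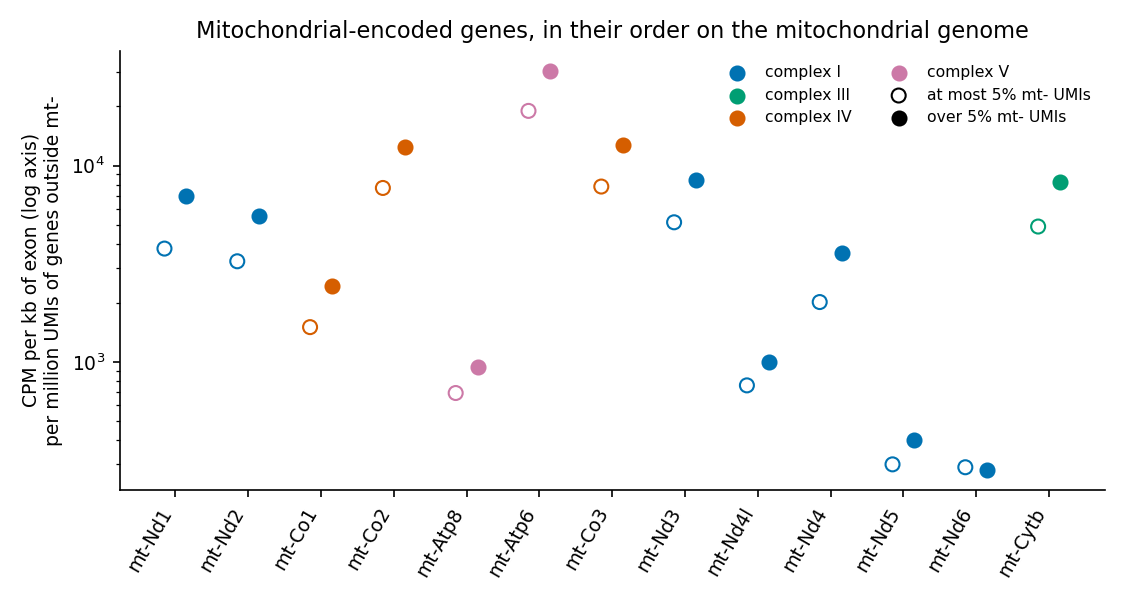
Level of the 13 mitochondrial-encoded genes in CPM per kb of exon (log axis), in their order on the mitochondrial genome, with open circles for nuclei with at most 5% and filled circles for nuclei with over 5% mt- UMIs, coloured by complex. *mt-Atp6* was highest and *mt-Nd6* and *mt-Nd5* were lowest, and *mt-Nd6* was the only gene whose filled circle did not lie above the open one.

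Among the 93 nuclear-encoded members, 81 had at least 10 CPM over the kept nuclei, 12 were below it, and 1 of these, *Cox8c*, had 0 UMIs. Just outside this minimum was the pseudogene row *Cox5b-ps* at 9.94 CPM and just inside it was the assembly factor *Ndufaf1* at 13.3 CPM. *Ndufa4* had the highest level of any nuclear-encoded member, at 986 CPM (981 to 991), and it was the gene of rank 121 in the library by UMIs. It lies on chromosome 6 (chr6:11897630-11907496, minus strand), and its protein was long counted with complex I but is a subunit of complex IV. After thinning each nucleus to 5000 UMIs, which left out 157 shallower nuclei, 97.7% of the nuclei had a UMI of *Ndufa4*.

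Per length, accessory subunits had the highest values in complexes I, III and IV. In complex IV they were *Cox8a* at 603 CPM per kb, *Cox6a1* at 236 and *Cox4i1* at 158, and the lowest structural subunit above 10 CPM was *Cox7b* at 47.3. In complex I they were *Ndufa2* at 407, *Ndufc2* at 381 and *Ndufb11* at 170 CPM per kb, and the lowest was *Ndufs1*, the largest subunit of the NADH-oxidizing arm, at 6.46. In complex III, which passes electrons from ubiquinol to cytochrome c, *Uqcrb*, *Uqcrq* and *Uqcrh* had 223, 146 and 115 CPM per kb, and the core protein *Uqcrc1* was lowest at 14.1. In complex V the highest were *Atp5a1* at 119.9, *Atp5g3* at 119.8 and the catalytic β subunit *Atp5b* at 116 CPM per kb, and the lowest was *Atp5md* at 19.2. On this scale *Cox8a* was above *mt-Nd5* and *mt-Nd6* and below the other 11 mt- genes. The lengths are exonic, while Cell Ranger of the version used counts introns by default. They join the exons of all annotated transcripts of a gene, and tags near the 3′ end do not grow with length. Genes of short exonic length therefore rank high, and long ones low, by the scale itself.

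Several subunits have isoforms that replace each other between tissues, and in these nuclei 1 isoform held nearly all UMIs of each pair. *Cox4i1*, the ubiquitous form of subunit 4 (chr8:121391505-121400950, plus strand), had 65547 UMIs or 496 CPM. *Cox4i2*, the form known from lung and low oxygen (chr2:152595625-152606959, plus strand), had 35 UMIs or 0.265 CPM (0.184 to 0.368). *Cox6a1* had 168 CPM and the heart and muscle form *Cox6a2* 6.03 CPM (5.62 to 6.46). *Cox6b1* had 275 CPM and the testis form *Cox6b2* 2.69 CPM. *Cox7a2* had 349 CPM, *Cox7a2l*, which takes part in supercomplexes of complexes III and IV, had 209 CPM, and the muscle form *Cox7a1* had 34 UMIs. *Cox7b* had 205 CPM against 30 UMIs of *Cox7b2*, and *Cox8a* 538 CPM against 2 UMIs of *Cox8b*. The c ring of ATP synthase was the exception, because its 3 genes encode the same mature protein and all were high: *Atp5g2* at 756 CPM, *Atp5g1* at 430 CPM and *Atp5g3* at 316 CPM. *Cox6c* stood at 450 CPM, and *Atp5e*, the ε subunit, at 224 CPM.

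Of the 9 assembly factors among the members, 8 had at least 10 CPM. The highest was *Cox7a2l*, and the Ndufaf genes for complex I ran from 7.06 CPM for *Ndufaf3* to 99.4 CPM for *Ndufaf2*. The copies *Ndufb4b* and *Ndufb11b*, with 161 and 3 UMIs, are near relatives of *Ndufb4* (31.9 CPM) and *Ndufb11* (257 CPM), and counts in these pairs and of *Cox5b-ps* are uncertain where tags fit both genes.

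Nuclear-encoded respiratory chain genes are known targets of the transcription factors NRF1 and GABPA, whose motifs were looked up in RefSeq promoters of GRCm38.p6 (250 bases before to 50 bases after the start). Of the 93 nuclear-encoded members, 75 had a promoter in this table. The NRF1 motif GCATGCGC, searched on both strands, was in 11 of the 75 promoters (14.7%), in 2.8% of all 27025 promoters and in 6.37% of the 7514 promoters of genes with at least 10 CPM here. The GABPA motif CCGGAAG, on both strands, was in 16 of the 75 (21.3%), in 9.12% of all promoters and in 20.3% of those of genes with at least 10 CPM. Both motifs were in 4 of the 75 member promoters (5.33%), and their joint share over all promoters was not counted. The NRF1 motif is almost its own reverse complement, so that matches on both strands can overlap. Stretches of 4 promoters are shown as examples, with the motifs in capitals. Other member promoters, among them those of *Cox8a* and *Cox6a1*, also had matches.
Atp5g2, chr15:102671065-102671104, minus strand: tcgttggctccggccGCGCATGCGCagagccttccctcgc
Ndufa11, chr17:56717687-56717726, plus strand: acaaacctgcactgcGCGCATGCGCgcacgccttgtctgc
Uqcrh, chr4:116075059-116075095, minus strand: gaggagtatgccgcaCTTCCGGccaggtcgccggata
Cox6b1, chr7:30626121-30626157, minus strand: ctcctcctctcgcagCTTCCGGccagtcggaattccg
A match is a run of letters and not a measured binding site.

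Splitting the kept nuclei at 5% mt- UMIs left 1954 nuclei at or below it and 6963 above it, or 78.1% of the nuclei. The split runs through the bulk of the distribution, with 163 nuclei between 4.9% and 5% and 170 nuclei between 5% and 5.1%. Median UMIs were 13357.5 below and 13859 above. Since the split was made on the mt- genes, their own difference is a description: 44840 CPM in nuclei with at most 5% and 73982 CPM in nuclei over 5%, a ratio of 1.65.

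The nuclear-encoded members were not used by the split. Their summed level was 16999 CPM (16952 to 17047) in nuclei with at most 5% mt- UMIs and 17871 CPM (17845 to 17896) in nuclei over 5%. The ratio of 1.05 (1.048 to 1.055) was past the counting error but small beside that of the mt- genes, and mt- UMIs per UMI of a nuclear-encoded member went from 2.64 to 4.14. By complex, the ratio of the summed level was 1.06 for complex I, 1.05 for complex III, 1.04 for complex IV and 1.05 for complex V. Within the re-derived clusters of nuclei, weighted by their counts, the ratio of the sum was 1.03. The direction turned in cluster 6 (0.933), in the 2230 shallowest nuclei (0.980) and with the split at 10% (0.940).

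Gene by gene, the 81 members with at least 10 CPM had a median ratio of 1.05, from 0.907 to 1.36, and 64 of them lay above 1. The median over all 9388 genes with at least 10 CPM was 1.01, and 5199 of these genes lay above 1. Taking a difference of at least 1.2-fold as the call, 6 members were higher in nuclei over 5%, next to 8.14% of all genes tested, and 0 members were lower, next to 4.83% of all genes. A share of 6 in 81 is near the background for higher genes. Within clusters 1 member was higher by this fold (background 1.03%) and 0 were lower (background 0.373%), and the median member ratio was 1.02. Of the members 60 lay above 1 within clusters, next to 4843 of the 9388 genes.

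The 6 members past the fold were *Ndufv3*, *Ndufaf7*, *Ndufa11*, *Ndufs7*, *Atp5b* and *Ndufv2*. *Ndufv3*, an accessory subunit of the NADH-oxidizing arm of complex I (chr17:31739052-31751735, plus strand), had 85.7 CPM in nuclei with at most 5% and 117 CPM in nuclei over 5%, a ratio of 1.36 (1.31 to 1.43), or 1.15 within clusters. *Ndufaf7*, a methyltransferase that acts on a complex I subunit during assembly, had 20.4 and 25.6 CPM, a ratio of 1.26 (1.15 to 1.37), and it was the member that stayed past the fold within clusters, at 1.21. *Atp5b* (chr10:127919132-127926261, plus strand) had 461 and 560 CPM, a ratio of 1.22 (1.19 to 1.24), or 1.08 within clusters. The ratios were 1.22 for the membrane arm subunit *Ndufa11*, 1.22 for the iron-sulfur subunit *Ndufs7* and 1.201 for *Ndufv2*. The 5 lowest ratios were those of *Ndufa3* at 0.907, *Ndufb1* at 0.920, *Cox6a1* at 0.937, *Ndufs4* at 0.939 and *Ndufaf2* at 0.947. Within clusters *Ndufa3* stood at 0.995 and *Ndufb1* at 1.03.

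The members past the fold lay on 2 chromosomes. *Ndufv3*, *Ndufaf7*, *Ndufa11* and *Ndufv2* are 4 of the 7 tested members on chromosome 17, all of which had ratios above 1, with a median of 1.201. *Ndufs7* and *Atp5b* are 2 of the 5 members on chromosome 10, whose median was 1.16. The median over all tested genes was also above 1 on these chromosomes, at 1.12 on chromosome 17 and 1.07 on chromosome 10. On chromosome 14, where no tested member lies, it was 1.17. The share of all tested genes past the fold in this direction was 20.4% on chromosome 17, 14.2% on chromosome 10 and 40.65% on chromosome 14. The 2 members on chromosome 12, *Ndufb1* and *Atp5mpl*, had a median of 0.940 and all genes there one of 0.923. Within clusters the median over all genes was 1.05 on chromosome 17 and 1.04 on chromosome 10, and the part of cluster or chromosome in the ratios of the 6 members was not tested further.

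**Figure D2:**
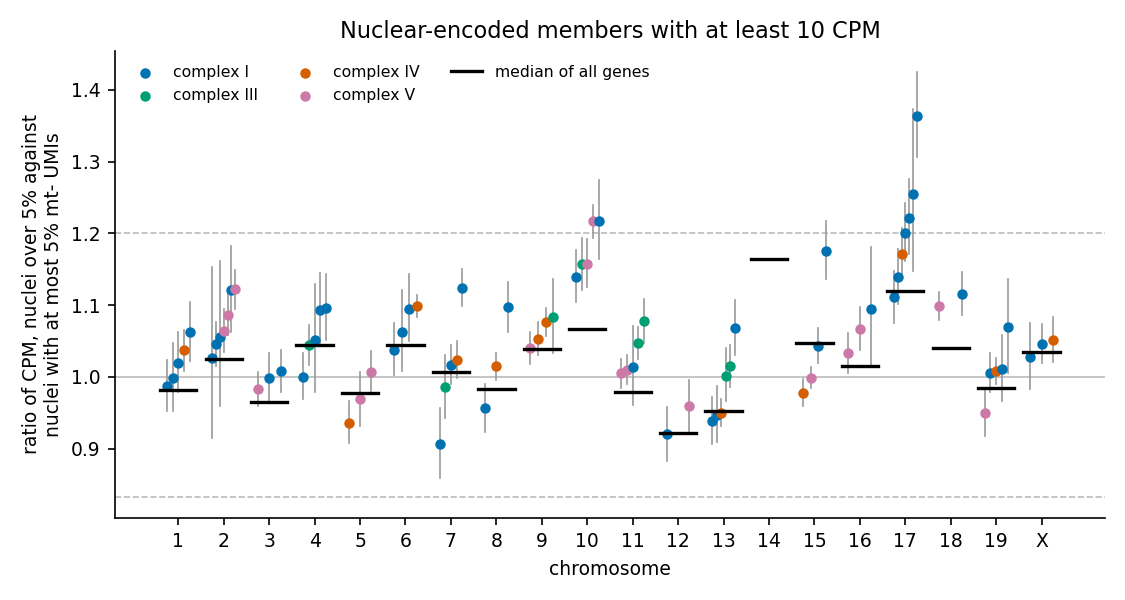
Ratio of CPM in nuclei over 5% against nuclei with at most 5% mt- UMIs for the 81 nuclear-encoded members with at least 10 CPM, by chromosome and coloured by complex, with 95% intervals for counting error and a black bar for the median of all tested genes on the chromosome. Dashed lines mark 1.2-fold, and the members above the upper line lie on chromosomes 10 and 17.

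Other gene lists of the mitochondrion and the cell had ratios from 0.969 to 1.125. The background for their counts is 8.14% of all genes tested for higher and 4.83% for lower. The sum of complex II and cytochrome c genes had a ratio of 1.07 with 0 of 6 tested genes past the fold, and other assembly factors had one of 1.04 with 0 of 21. Mitochondrial ribosomal proteins had a ratio of 1.06, with 2 of 78 higher. In the TCA cycle list the ratio was 1.125 with 4 of 12 genes higher, among them *Suclg2* at 1.31. Within clusters no gene of these lists was past the fold, and the TCA cycle sum stood at 1.05. In the list of mitochondrial DNA upkeep and transcription 1 of 12 genes was higher. This was *Ppargc1a*, the coactivator known for driving mitochondrial biogenesis, at 9.14 and 17.6 CPM, a ratio of 1.92 (1.69 to 2.20) and of 1.26 within clusters, while *Nrf1* and *Gabpa* stood at 1.01 and 0.991. Cytosolic ribosomal proteins had a ratio of 1.09, with 8 genes higher and 1 lower of 83, and 1.06 within clusters. In the hypoxia list 3 of 5 tested genes were higher, and 0 of 5 within clusters. Its sum had a ratio of 1.115, or 1.01 within clusters. The stress list had a ratio of 0.969 with none of 5 genes past the fold. Within clusters 1 of them, *Trib3*, was lower, at 0.791.

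RNAs that are kept in the nucleus went the other way. *Malat1* had 11424 CPM in nuclei with at most 5% and 9392 CPM in nuclei over 5%, a ratio of 0.822 (0.819 to 0.825), or 0.851 within clusters. *Neat1* had a ratio of 0.427, but of 0.856 within clusters. Of the marker lists reported here, the OPC sum had a ratio of 0.859 (0.993 within clusters). Its 8 genes went both ways, with 5 ratios below 1 and 3 above, from 0.717 to 1.396. By the fold 2 were lower and 1 was higher, and within clusters 0 were past it. Most of the sum came from *Lhfpl3* (2085 CPM, ratio 0.759) and *Ptprz1* (2023 CPM, ratio 0.890). The neuron sum had a ratio of 0.787 (1.00 within clusters). Its 1 tested gene, *Syt1*, stood at 0.792, while the low *Rbfox3* (4.31 CPM) stood at 1.26. The astrocyte, microglia, endothelial and fibroblast or pericyte lists each summed to at most 16.4 CPM. The part of these RNAs in the level of the respiratory chain genes was not tested.

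The mt- genes did not all follow the split in step. *mt-Nd1* and *mt-Nd4* had the largest ratios, 1.85 and 1.77, and *mt-Atp8*, *mt-Nd5* and *mt-Nd4l* small ones of 1.36, 1.32 and 1.32. *mt-Nd6* had 151 CPM in nuclei with at most 5% and 146 CPM in nuclei over 5%, a ratio of 0.968 (0.936 to 1.00). Its share of mt- UMIs was 0.336% below and 0.197% above the split. Its level was 142 CPM in nuclei of 5 to 10%, 201 CPM in nuclei of 10 to 15% and 733 CPM in nuclei over 15%. Over finer ranges, the part of *mt-Nd6* in mt- UMIs fell from 0.533% in nuclei of 0 to 3% to 0.140% at 8 to 10%. It then stood at 0.158% and 0.275% in nuclei of 10 to 15% and over 15%.

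Across the same ranges the nuclear-encoded sum was not a straight line. It stood at 18706 CPM in the 108 nuclei of 0 to 3%, at 16923 and 16931 CPM in the 429 nuclei of 3 to 4% and the 1417 nuclei of 4 to 5%. It then rose to 17426, 17837, 18342 and 18551 CPM in the ranges of 5 to 6, 6 to 7, 7 to 8 and 8 to 10%. In the 265 nuclei of 10 to 15% it was 17682 CPM, and in the 77 nuclei over 15% it was 10175 CPM (9875 to 10481). Cytosolic ribosomal proteins ran in parallel, from 86525 CPM at 3 to 4% to 104013 CPM at 8 to 10% and 46671 CPM over 15%. *Malat1* ran in the opposite direction, from 12270 CPM at 0 to 3% down to 8503 CPM at 8 to 10%, and reached 31972 CPM over 15%. Nuclei over 15% had a median of 6275 UMIs.

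In these 77 nuclei nearly every member was low. Against nuclei of 5 to 10%, 75 of the 81 members were lower by at least 1.2-fold, next to 37.3% of all genes tested, and 3 were higher, next to 35.0%. The median ratio over the members was 0.550 and that over all genes 0.996. *Ndufa8*, a subunit of complex I, went from 210 to 55.9 CPM (ratio 0.266, 0.170 to 0.395), *Atp5g2* from 759 to 342 CPM (0.451), *Ndufa4* from 1007 to 538 CPM (0.534) and *Cox8a* from 541 to 305 CPM (0.563). *Cox4i1* stood at 496 and 410 CPM (0.825, 0.708 to 0.957) and *Cox6c* at 448 and 433 CPM (0.967, 0.833 to 1.12). The 3 higher members were *Ndufaf5*, *Ndufa9* and *Ndufaf7*, each with an interval that included 1, and *Ndufaf1* had 0 UMIs in these nuclei. Some of the 75 lower members also had such intervals, among them *Ndufb3* (0.804, 0.586 to 1.08) and *Ndufs4* (0.799, 0.583 to 1.07). The 918 barcodes with under 2000 genes, which were not kept, were alike in part: 19.5% of their UMIs were mt-, their nuclear-encoded sum was 13855 CPM and *Malat1* stood at 26821 CPM. With the split moved to 10%, the ratio of the nuclear-encoded sum was 0.940. Then 10 members were lower (13.0% of all genes) and 2 were higher (15.4% of all genes). The part of the nuclei over 15% in this was not tested.

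**Figure D3:**
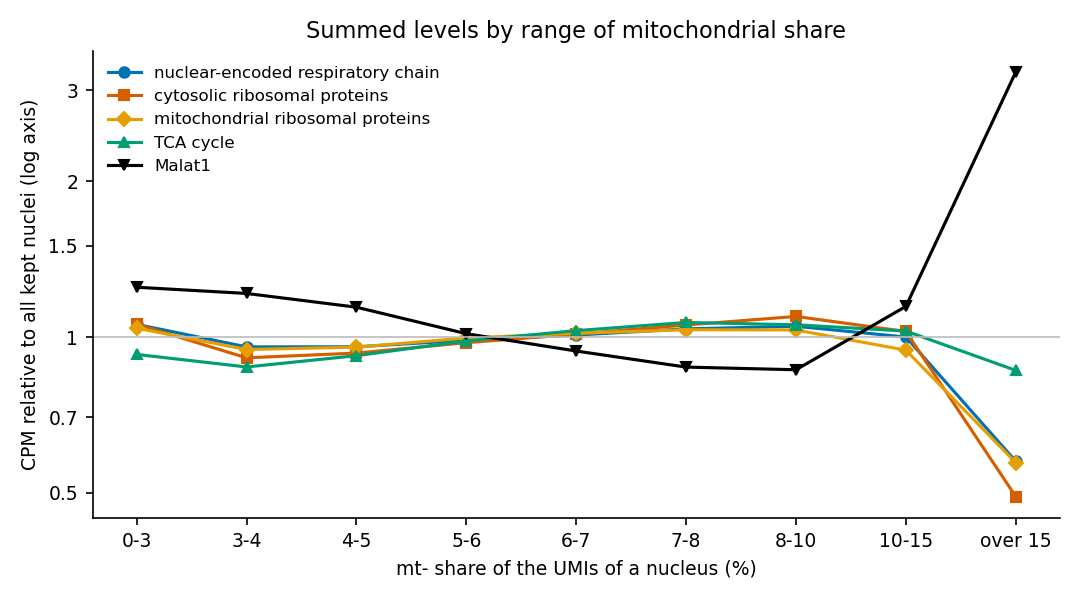
Summed level of the nuclear-encoded respiratory chain genes, cytosolic and mitochondrial ribosomal proteins, the TCA cycle list and *Malat1* by range of the mt- share of a nucleus, relative to all kept nuclei (log axis). The respiratory chain and ribosomal protein sums ran together and fell to 0.576 and 0.492 in nuclei over 15%, where *Malat1* reached 3.25.

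Per nucleus, the mt- share varied far more than counting allows. Its SD over the 8917 nuclei was 2.30 percentage points around a mean of 6.45%, which is 10.5 times the SD that counting gives. The share of the nuclear-encoded members had a mean of 1.80% and an SD of 0.366, or 2.99 times that of counting. Over nuclei, the mt- share and the nuclear-encoded share were barely related (Pearson's r -0.104, Spearman's rho 0.103, n = 8917 nuclei of 1 library). The nuclear-encoded share went with the share of cytosolic ribosomal proteins (r 0.627, rho 0.578), and the complex I and complex V parts of it with each other (r 0.661, rho 0.630). Among mt- genes, the complex I and complex IV shares had an r of 0.827 and a rho of 0.732. The points share 1 library and its depth, and these values are descriptions.

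Both gene sets also differed between 8 clusters, which were re-derived from all 8917 kept nuclei with the settings of the study's methods. They are not the study's own clusters, whose nuclei were as many as those at or below the split, and the inputs therefore differed. Only 2 members were among the 3000 genes used for clustering, and the clusters are numbered and not named. The mt- share was highest in cluster 6 at 7.31% and cluster 2 at 7.23%, and lowest in cluster 3 at 5.30%, cluster 0 at 5.42% and cluster 7 at 5.42%, a range of 1.38-fold. The nuclear-encoded sum ran from 15122 CPM in cluster 7 and 16171 CPM in cluster 0 to 18623 CPM in cluster 2, a range of 1.23-fold. The order of the clusters was not the same for both, since cluster 3 had the lowest mt- share but 18374 CPM of nuclear-encoded members. Clusters 0 and 3 held most nuclei of at most 5%, as 38.4% and 44.6% of their nuclei lay below the split, against 6.41% in cluster 6. Within clusters the ratio of the nuclear-encoded sum across the split lay between 1.015 and 1.061 in clusters 0 to 5. It was 0.933 (0.9166 to 0.9497) in cluster 6 and 1.13 (1.10 to 1.16) in cluster 7, which had 687 and 182 nuclei.

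**Figure D4:**
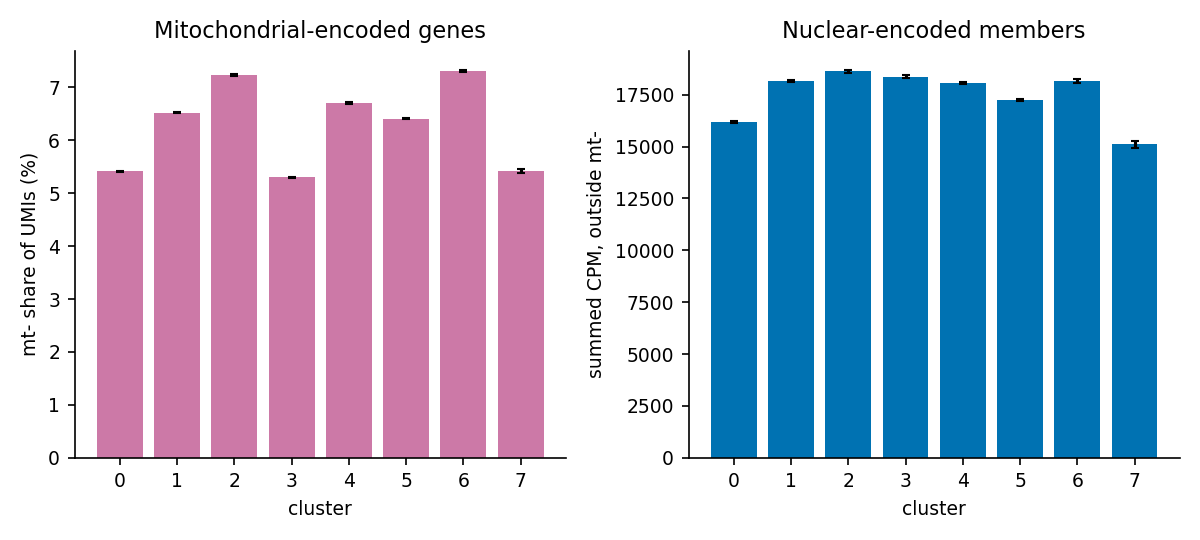
Share of UMIs on the 13 mt- genes (left) and summed CPM of the 93 nuclear-encoded members (right) in the 8 clusters, with 95% intervals for counting error. Cluster 3 had the lowest bar on the left at 5.30% but 18374 CPM on the right, and cluster 7 was lowest on the right at 15122 CPM.

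Single members differed between clusters by more than the sums. Comparisons of a cluster with the other nuclei describe how the nuclei were grouped and are not tests, and the genes below were picked after their values were seen. In cluster 3, 11 of the 81 members were higher by at least 1.2-fold (16.0% of all genes) and 6 were lower (22.3% of all genes). *mt-Nd3*, a core subunit of the membrane arm of complex I (chrM:9459-9806), had 1327 CPM in cluster 3 and 2430.0 to 3264 CPM in the other clusters. As a share of mt- UMIs it was 2.37% in cluster 3 and 3.79% to 4.49% elsewhere, so that it stood apart from the other mt- genes too. Its last 120 bases, where 3′ tags fall, are shown with the final codon in capitals, since the gene gave the largest difference of any mt- gene between clusters.
mt-Nd3, chrM:9687-9806, plus strand: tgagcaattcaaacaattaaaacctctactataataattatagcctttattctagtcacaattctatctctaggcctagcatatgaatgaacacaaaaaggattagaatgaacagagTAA
*mt-Nd2* and *mt-Nd1* were also lowest in cluster 3, at 3645 and 4271 CPM against at least 4777 and 4638 CPM elsewhere. *Atp5b* had 318 CPM in cluster 3 and 499 to 624 CPM in the others, a ratio of 0.560 (0.544 to 0.576) to all other nuclei. *Ndufs7*, on the same chromosome, had a ratio of 0.684, and all 5 tested members of chromosome 10 were below 1 in this cluster, with a median of 0.838 (all genes of the chromosome 0.917). On the high side, *Cox6c* had 633 CPM in cluster 3 and 360 to 493 CPM elsewhere, and *Ndufa3* had 77.8 CPM against 34.0 to 62.3 CPM. *Ndufa4l2*, a relative of *Ndufa4* known as a target of hypoxia signaling, had 81 UMIs in all and 2.98 CPM in cluster 3 against at most 0.489 CPM elsewhere.

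In cluster 1, 27 members were higher (40.5% of all genes) and 10 were lower (23.3% of all genes). The lowest were *Ndufs5* (chr4:123606481-123612002) at 93.2 CPM against 146 to 199 CPM elsewhere and *Uqcrh* (chr4:115923314-115932296), the hinge protein of complex III, at 149 CPM against 236 to 298 CPM. *Ndufa3* had 34.0 CPM against 49.4 to 77.8 CPM and *Atp5g2* 526 CPM against 709 to 837 CPM. *Ndufs3*, a core subunit of complex I, stood at 89.7 CPM against 49.0 to 65.2 CPM, and *mt-Nd6* at 203 CPM against 104 to 157 CPM. *Cox4i2* had 0.918 CPM in cluster 1 and at most 0.219 CPM elsewhere, from 35 UMIs in the library.

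In cluster 0, 0 members were higher (11.7% of all genes) and 25 were lower (22.5% of all genes), led by *Ndufs6* at 93.8 CPM against 108 to 186 CPM and *Ndufa6* at 111 CPM against 143 to 217 CPM. In cluster 7, 1 member was higher (21.8% of all genes) and 38 were lower (31.0% of all genes), and all 5 on chromosome 11 were lower, with a median of 0.686 (all genes of the chromosome 0.834). The 2 members on chromosome 12, *Ndufb1* and *Atp5mpl*, were both lowest in clusters 2, 4 and 6. *Ndufb1* had 74.7 to 80.3 CPM in clusters 2, 4 and 6 and 106 to 137 CPM in clusters 0, 1, 3 and 7, and *Atp5mpl* had 100.4 to 100.7 and 122 to 161 CPM, with cluster 5 between them for both. Over all tested genes of chromosome 12, the median ratio to the other nuclei was 0.695 to 0.736 in clusters 2, 4 and 6. The part of whole chromosomes in the levels of these members was not tested.

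**Figure D5:**
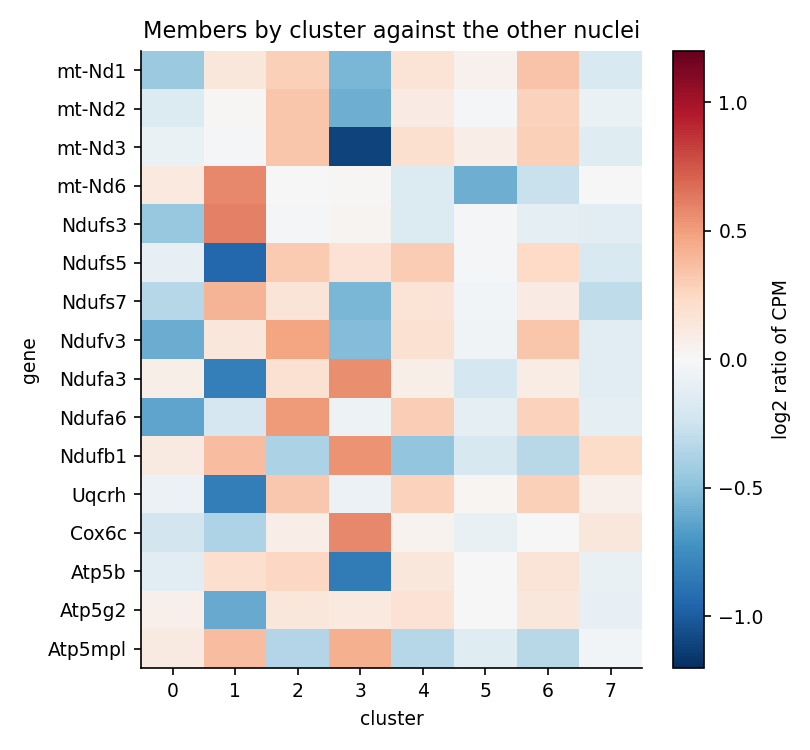
Log2 ratio of CPM in each cluster against all other nuclei for 16 members named for their differences between clusters. The darkest field is *mt-Nd3* in cluster 3, and *Ndufb1* and *Atp5mpl* were both lower in clusters 2, 4 and 6.

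The sums also differed by cell cycle phase and depth. The mt- share was 6.64% in nuclei scored as G1, 6.26% in S and 6.22% in G2/M, and the nuclear-encoded sum 18214, 17571 and 17466 CPM. Over 4 equal groups of nuclei by UMIs, from shallow to deep, the nuclear-encoded sum was 18827, 18401, 17739 and 17012 CPM, so that it was lower in deeper nuclei. Phase and depth went together, with median UMIs of 11780 in G1, 12670.5 in S and 16473.5 in G2/M, and their parts were not told apart. The ratio across the 5% split was 0.980 (0.972 to 0.988) in the shallowest group and 1.05, 1.09 and 1.06 in the others.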

How the data were processed

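Nuclei of cultured BB-p53n OPCs were profiled in 1 Chromium 3′ library. The authors called nuclei with Cell Ranger 8.0.1 on mm39 and deposited a matrix of UMI counts, not normalized and with no cutoff on detected genes. Cell Ranger of this version counts intronic reads by default. Gene positions and exonic lengths came from GENCODE on GRCm39 (same build), to which all 106 members matched by identifier.

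From these counts, barcodes with 2000 to 8000 genes were kept, UMIs were summed over groups of nuclei and divided by the UMIs of genes outside mt-. Ratios were called at 1.2-fold among genes with at least 10 CPM. The 141138093 UMIs make counting intervals narrow for the library and wider for small groups. Clusters were re-derived with Seurat 5.3.0 in R 4.3.3 (scale factor 1000, 3000 variable genes, 20 components, 200 neighbors, resolution 1.0). Doublets were not removed. Cell cycle phases used 43 S and 54 G2/M genes. The search for nuclear copies used blastn. The ratio and its interval were tried on simulated counts drawn with counting error only, which cannot show how they do under the spread over nuclei. The named genes are all mt- genes, per complex the 3 highest and the lowest structural subunit per length, isoform families, the 5 highest and 5 lowest ratios, members at 0 and genes beside list counts. Members, lists and tests were chosen with earlier results of these data known. The tumor samples were not analysed here. Some genes and a marker list are not reported here.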

Additional observations from a re-analysis of the deposited data

How the results depend on the processing

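No paired analysis was possible because only 1 library was analysed, so that the replicate numbers of the tumor samples pair nothing here. "Moved" below means outside the counting interval of the reported value, or for a count of members a change by over 1.5 times. The mt- share of 6.34% moved to 6.49% over all deposited barcodes, 6.32% with 3000 to 7000 genes, 6.45% with equal weight per nucleus and 6.42% after thinning. The nuclear-encoded sum moved to 17818 CPM with 3000 to 7000 genes, 16561 CPM with all UMIs as the total, 17975 CPM with equal weight, 18026 CPM after thinning and 17120 CPM for structural subunits alone. The ratio of that sum across the split moved to 1.055 over all barcodes, 1.02 with all UMIs as the total, 1.033 with equal weight, 1.032 after thinning, 1.033 and 1.029 within clusters (geometric mean, and weighted by counts), and 1.07 without the shallowest and deepest nuclei. It went below 1, to 0.940, only with the split at 10%, and the part of the nuclei over 15% in this was not tested. The 6 higher members became 2 with the split at 10%, at the median share or with all UMIs as the total, 0 within clusters by the geometric mean and at 1.5-fold, and 1 within clusters weighted by counts. The 0 lower members became 10 with the split at 10% and 1 at 1 CPM. The range between clusters moved to 1.345 with 3000 to 7000 genes and 1.36 at resolution 0.4 for the mt- share, and to 1.25 with 3000 to 7000 genes and 1.22 with all UMIs as the total for the nuclear-encoded sum. The other alternatives, also clustering without the members and leaving out nuclei over 15%, stayed within these limits. The weighting by counts and the removal of nuclei over 15% were chosen after seeing the data. The cause of the moves was not tested. With 1 library, no value has a replicate error, and nuclei near the split differ little in mt- share.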
